A study of Mus musculus with 12 samples.

Results

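Axon guidance ligands and receptors were followed in the cochlea of wild-type and Gjb2 mutant mice. Members were the rows of the expression table whose gene name belongs to the semaphorin, plexin, neuropilin, ephrin, Eph, netrin, Slit, Robo, Unc5 or Dcc names, and 73 of the 37432 genes matched. Of these, 69 are ligands or receptors: 31 in the semaphorin family, 22 in the ephrin family, 9 in the netrin family and 7 in the Slit family. The other 4 match by name only: Unc50, Unc5cl, and the opposite-strand genes Plxna4os1 and Plxna4os2.

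RNA was sequenced from 3 turns of cochleae at P14, apical, middle and basal, with 2 libraries for each of 6 groups of genotype and turn. The mutant mice were homozygous for the 35delG allele of Gjb2 (Gjb2 35delG/35delG), the gene for the gap junction protein connexin 26, and were labelled as a knockout. They were males grown wholly from male embryonic stem cells by tetraploid complementation on a background of almost pure C57BL/6J, born by cesarean section, with ICR females as foster mothers. The wild-type mice were purchased males of the same age, so genotype and origin cannot be told apart. Values are FPKM, which are fragment numbers corrected for transcript length and for the total of the library, divided by a scaling factor per library of between 0.917 and 1.06. The depth of each library is unknown from FPKM. The number of mice in a library is not stated, and p-values measure only the spread between these samples. Each cochlea was cut into the 3 turns, so libraries of different turns may share animals, which the sources do not settle. Tests across turns treat all libraries as independent.

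Growing axons steer by membrane and secreted cues. Semaphorins act through plexins and neuropilins, ephrins through Eph receptor kinases, netrins through Dcc and Unc5 receptors, and Slits through Robo receptors. In the inner ear these families are known for the routing of spiral ganglion and efferent fibres, and many members are also made by epithelial, mesenchymal and vascular cells.

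Gjb2 was listed at 248 and 254 in the wild-type apical libraries and 332 and 376 in the homozygous ones, 139.7 and 268 against 256 and 451 in the middle turn, and 434 and 256 against 126 and 58.6 in the basal turn (scaled FPKM). Both homozygous basal libraries were below every wild-type library, the homozygous apical pair was above the wild-type apical pair, and the middle groups overlapped. The basal log2 difference was −1.94 (limma adjusted p = 0.0238), which was not called by the rule given below. FPKM do not show the 35delG allele, so these values do not check the genotype labels.

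Several libraries stood apart by cell type markers, and the genes below have to be read beside them. The summed level of the 15 neuron markers, of which Snap25 was the most abundant, was 746 and 1086 in the wild-type apical libraries and 214 and 405 in the homozygous ones, 1791 and 1962 against 438 and 59.4 in the middle turn, and 14.5 and 950.4 against 3284 and 3749 in the basal turn. The 12 hair cell markers, led by Ocm, summed to 569.99 and 571 in the wild-type apical libraries and 327 and 292 in the homozygous ones, 29.7 and 116 against 227 and 403 in the middle turn, and 148 and 147 against 9.07 and 9.01 in the basal turn. By these sums both homozygous basal libraries were the highest for neurons and the lowest for hair cells. The first wild-type basal library was almost without neuron markers, with 2 of the 15 listed at 0. In the basal turn 13 neuron genes were above both wild-type libraries in both homozygous ones (26.2% of all genes), and Syt1 and Gap43 overlapped. Syt1 went against the sum in the other turns. It was at 5.45 and 4.15 in the wild-type apical libraries and 12.6 and 6.85 in the homozygous ones. In the middle turn it was at 3.48 and 1.98 against 3.99 and 6.075.

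The 14 Schwann cell and myelin markers, led by Mbp, summed to 2846 and 3022 in the wild-type apical libraries and 1786 and 2324 in the homozygous ones, 20413 and 6184 against 890.2 and 887 in the middle turn, and 1651 and 5758 against 9732 and 15242 in the basal turn. The 10 oligodendrocyte markers, led by Mobp, summed to 16.8 and 15.1 in the wild-type apical libraries and 14.2 and 28.7 in the homozygous ones, 1116 and 23.5 against 13.4 and 16.2 in the middle turn, and 11.9 and 341 against 356 and 525 in the basal turn. The 6 astrocyte markers, led by Gfap, summed to 27.8 and 26.6 in the wild-type apical libraries and 39.3 and 47.1 in the homozygous ones, 549 and 29.2 against 30.3 and 47.7 in the middle turn, and 44.5 and 211 against 228 and 377 in the basal turn. The first wild-type middle library, the second wild-type basal library and both homozygous basal libraries carried these glial markers of the central nervous system, and the other 8 libraries had little of them.

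The 12 supporting cell and tectorial membrane markers, led by Ceacam16, summed to 3100.2 and 3405 in the wild-type apical libraries and 2276 and 1526 in the homozygous ones, 1659.5 and 1557 against 968 and 1369 in the middle turn, and 2702 and 587 against 105 and 29.7 in the basal turn. The 8 spiral ligament fibrocyte markers, led by Coch, summed to 8647 and 6873 in the wild-type apical libraries and 7585 and 8264 in the homozygous ones, 7457 and 7942 against 8352 and 12426 in the middle turn, and 7359 and 6896 against 2719.6 and 487 in the basal turn. Both sums were lowest in the homozygous basal libraries, but not every gene followed its sum. Ceacam16 and Epyc make up 88.5% of the supporting cell sum, and Coch and Otos 86.1% of the fibrocyte sum. In the basal turn both homozygous libraries lay below both wild-type ones for 7 of 12 supporting cell genes and 4 of 8 fibrocyte genes, beside 27.8% of all genes. They lay above for 2 supporting cell genes, Prox1 and Matn4 (26.2% of all genes), and Sox2 overlapped. Of the 12 hair cell genes, 11 were below both wild-type basal libraries in both homozygous basal ones, and 1 overlapped. Otof, needed for hair cell exocytosis, was at 0.0982 and 0.109 in the homozygous basal libraries, against 32.2 and 20.7 in the wild-type ones. Slc26a5, the outer hair cell motor protein, was at 0.0509 and listed at 0 in the homozygous basal libraries. It was also low in wild-type libraries, at 0.594 and 1.44 in the basal and 0.0255 and 0.876 in the middle turn.

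Of the remaining lists, the 10 strial marker genes, led by Cldn11, summed to 207 and 184 in the wild-type apical libraries and 707 and 1557 in the homozygous ones, 654 and 214 against 781 and 1269 in the middle turn, and 443 and 1086 against 712 and 443 in the basal turn. Single strial genes split the libraries more sharply. Dct was at 1.17 and 1.66 in the wild-type apical libraries and 194 and 586 in the homozygous ones. In the middle turn it was at 5.59 and 1.64 against 227 and 474. Its basal values were 1.03 and 442 against 158 and 0.0646. Esrrb, Slc12a2, Tyr, Kcnq1 and Kcne1 were highest in the same libraries as Dct, while Cldn11, Pmel, Kcnj10 and Tyrp1 did not follow this split. The 12 bone cell markers, led by Col1a2, summed to 198 and 257 in the wild-type apical libraries and 508 and 922 in the homozygous ones, 1354 and 840.4 against 3588 and 925 in the middle turn, and 618 and 3538 against 682 and 575 in the basal turn. The 9 endothelial markers, led by Emcn, summed to 201 and 146 in the wild-type apical libraries and 133 and 121 in the homozygous ones, 93.1 and 109 against 157 and 153 in the middle turn, and 123.4 and 108 against 81.4 and 92.3 in the basal turn. None of these 3 lists was lowest or highest in both homozygous basal libraries except the endothelial one, whose sum was lowest there, with 2 of its 9 genes below both wild-type basal libraries.

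The 8 macrophage markers, led by C1qb, summed to 73.6 and 60.3 in the wild-type apical libraries and 109 and 138 in the homozygous ones, 182 and 119 against 203 and 124 in the middle turn, and 167 and 260.01 against 119 and 192 in the basal turn. The 12 neutrophil and erythroid markers, led by Hbb-bs, summed to 757 and 266 in the wild-type apical libraries and 389 and 1651 in the homozygous ones, 532 and 1823 against 9542 and 903 in the middle turn, and 3581 and 6973 against 553 and 682 in the basal turn. The macrophage sums of the genotypes overlapped in the basal turn, and both homozygous basal libraries were below both wild-type ones for the neutrophil and erythroid sum. In such tissue pieces, fewer cells of a type and less RNA per cell cannot be told apart. Nor can a difference in how the pieces were cut be told apart from genotype. This holds for each genotype difference below, in any turn and between turns.

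**Figure D1:**
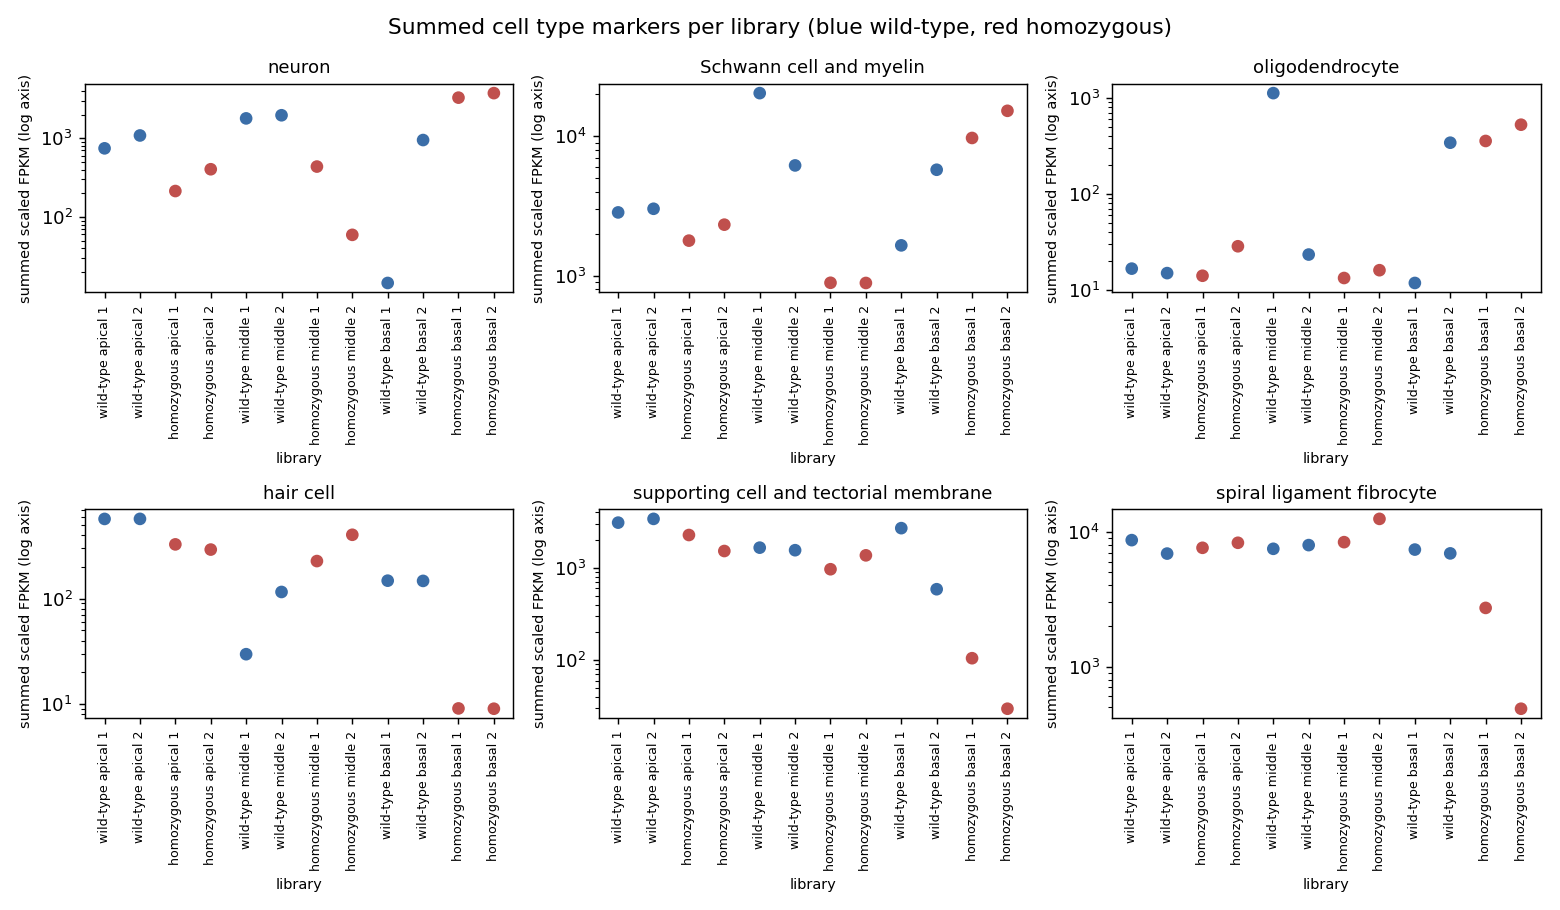
Summed scaled FPKM of 6 cell type marker lists (log axis) in each of the 12 libraries, wild-type in blue and homozygous in red. Both homozygous basal libraries are the highest for neuron markers and the lowest for hair cell, supporting cell and fibrocyte markers.

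Among the 69 ligands and receptors, 19 had a mean over the libraries of 10 or more scaled FPKM and 7 a mean under 1. A filter of at least 1 FPKM in 2 or more libraries left 66 of the 73 rows for testing. The 7 rows left out were Epha6, Epha10, Dcc, Slit1, Robo3 and both Plxna4 opposite-strand genes. Robo3 was listed at 0 in most libraries, and Dcc, the netrin receptor, stood between 0.233 and 1.07. How strand was used in counting is not given in the sources used here, so reads of Plxna4 and its opposite-strand genes cannot be told apart. The most abundant members were the receptor Plxnb2 (mean 36.9) and the ligand Sema7a (mean 35.4).

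**Figure D2:**
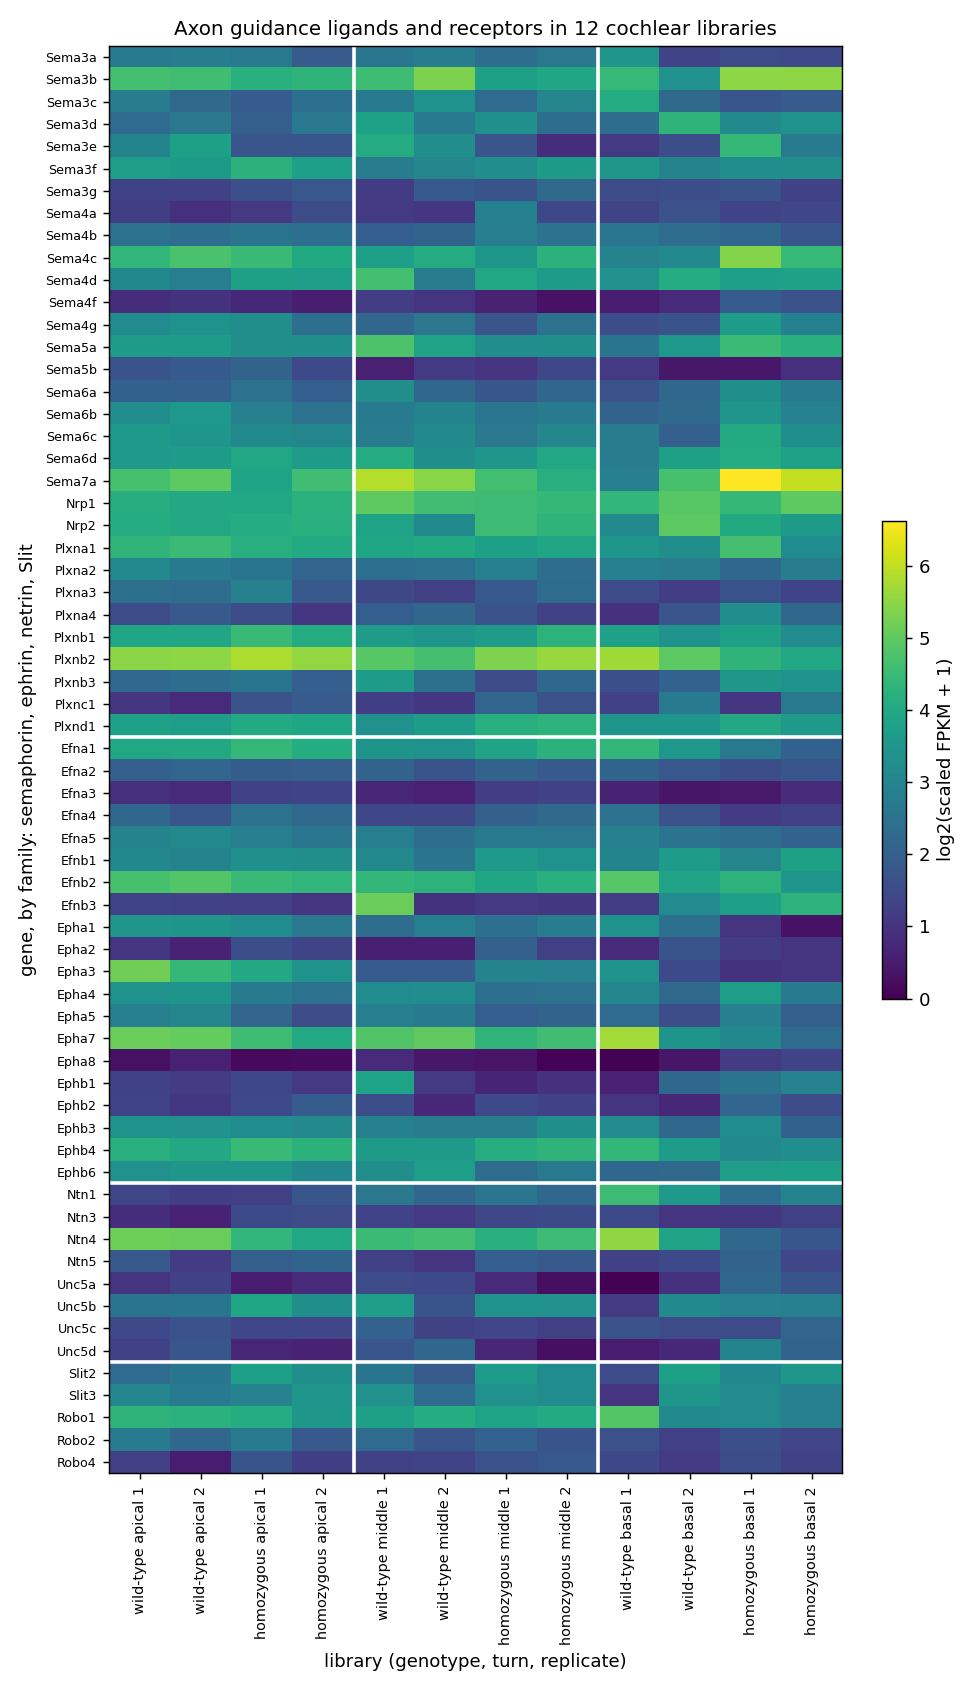
Level of the 64 tested ligands and receptors, as log2(scaled FPKM + 1), in the 12 libraries, with white lines between families and between turns. Sema7a reaches its highest level in the homozygous basal libraries, and Plxnb2 its lowest.

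The question of each genotype comparison is which members differ between homozygous and wild-type cochlea in the same turn. A gene was called where limma with Benjamini-Hochberg adjustment gave an adjusted p under 0.01 and the groups differed over 2-fold on the log2(scaled FPKM + 1) scale, which understates changes of low genes. In the basal turn 4 of 66 members were called, against 4.29% of all genes tested. Of these, 2 rose, beside 2.53% of all genes, and 2 fell, beside 1.76%. In the apical turn 0 members were called by limma, beside 0.179% of all genes, with 7 members at an unadjusted p under 0.05, as were 16.4% of all genes. In the middle turn 0 were called, beside 0.179% of all genes, with 19 at an unadjusted p under 0.05 (25.4% of all genes). For the mean of the 3 turns limma called 0 members, beside 0.376% of all genes, with 13 at an unadjusted p under 0.05 (18.6% of all genes). Without the second wild-type basal library that mean gave 3 calls, beside 1.88% of all genes: Epha7 (−1.41), Ntn4 (−1.57) and Slit2 (1.34 on the log2 scale).

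The 4 basal calls were Ephb6 and Unc5d, which were higher in the homozygous turn, and Epha1 and Ntn4, which were lower. The calls were lost in most fits with a library left out. Without either wild-type apical, either homozygous apical or either homozygous basal library, 0 members were called, beside 0.25% to 0.826% of all genes. Without any 1 of the 4 middle libraries only Ephb6 was called (1.43% to 1.79% of all genes), and without the first wild-type basal library only Sema3b (0.615%). Without the second wild-type basal library the count was 20, and the share of all genes called was 11.5%. With no filter, with library weights or with the basal libraries alone limma called 0 members, beside 0.247%, 0.136% and 0% of all genes. In the fit of all libraries 29 members (32.4% of all genes) were at an unadjusted p under 0.05. With the replicate number as a block limma called Ephb6 alone (1.09% of all genes).

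At an adjusted p under 0.05 with no limit on the fold change, 21 members passed in the basal turn, beside 18.1% of all genes. Of these, 15 were higher in homozygous tissue, beside 9.94% of all genes, and 6 were lower, beside 8.17%. The higher ones include Epha8 and Sema4f, which would not have passed the filter on low values, set on FPKM as deposited, without the homozygous basal libraries, so the filter bears on their being high there. Without all genes of that kind 13 members were higher, beside 9.76% of all genes. The same threshold took 3 members in the middle turn, Sema3e, Ephb6 and Unc5d, all lower in homozygous tissue, beside 3.99% of all genes in either direction, 1.63% higher and 2.36% lower. This depended on the scaling. On FPKM as deposited it took 1 higher (3.92% of all genes) and 1 lower (1.95%), and after quantile normalization 1 higher (2.36%) and 3 lower (3.92%). In the apical turn it took 0 members in limma, beside 0.931% of all genes.

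Counting libraries without a test, 21 members had both homozygous basal libraries above both wild-type ones, beside 26.2% of all genes, and 14 had both below, beside 27.8%. The 21 include Epha8 and Sema4f, on which the filter on low values bears. In the middle turn 21 members lay above, beside 31.3% of all genes, and 20 below, beside 28.2%. In the apical turn 21 lay above, beside 26.9%, and 26 below, beside 32.1%. The median log2 difference of the 66 members was −0.08 for the apical turn (0.02 after quantile normalization), 0.00 for the middle turn (0.16 on FPKM as deposited) and 0.07 for the basal turn. Over all genes tested it was −0.03, 0.04 and −0.02. Without all genes on which the filter bears through the homozygous basal libraries, the basal median was 0.05 for the members and −0.03 for all genes. Without the second wild-type basal library the basal median of the members was 0.24.

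Whether the genotype effect differed between turns was tested directly. For the basal minus the middle turn, 9 of 66 members were called, against 8.91% of all genes. Of these, 7 had the higher effect in the basal turn, beside 6.33% of all genes: Sema3b, Sema3e, Sema4f, Sema7a, Ephb6, Unc5a and Unc5d. The filter bears on Sema4f here as well, and without all genes of that kind 6 members had the higher effect, beside 6.32% of all genes. The 2 with the lower effect, beside 2.58% of all genes, were Plxnb2 and Efna1. The basal comparison and this effect share the basal libraries. At an adjusted p under 0.05 the count was 24, beside 22.9% of all genes. The 24 include Epha8 and Sema4f, and without all genes on which the filter bears 14 had a higher (12.3% of all genes) and 8 a lower effect (10.5%).

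This count also moved with single libraries. It was 3 without the first or the second wild-type apical library (4.3% and 4.36% of all genes) and 2 without the first or the second homozygous apical library (4.84% and 4.81%). Without the first and the second wild-type middle library it was 2 and 4 (1.73% and 3.2% of all genes), and without the first and the second homozygous middle library 4 and 2 (4.93% and 3.08%). Without the first and the second wild-type basal library it was 5 and 19 (6.29% and 14.2% of all genes), and without the first and the second homozygous basal library 3 and 4 (4.45% and 5.17%). Leaving out the first wild-type middle and first wild-type basal libraries together, an alternative chosen after seeing the data, gave 3 members here (1.34% of all genes) and 1 in the basal comparison (0.542%). With no filter Ephb6 was the 1 call (0.822% of all genes), with the libraries of both turns alone limma called 0 (0% of all genes), against 31 members (37.7% of all genes) at an unadjusted p under 0.05 with all libraries, and with the replicate number as a block it called 4 (5.96% of all genes), Ephb6, Plxnb2, Sema3e and Unc5d. With a pseudocount of 0.1 the calls of Sema7a and Unc5a were lost, with library weights those of Sema4f and Unc5a (7 calls, 6% of all genes), after quantile normalization that of Sema7a, and on FPKM as deposited that of Unc5a.

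Both other differences between turns were tested after the data were seen. For the basal minus the apical effect limma called 0 members, beside 0.796% of all genes, with 26 at an unadjusted p under 0.05 (28.4% of all genes). Without the second wild-type basal library 7 members were called, beside 6.88% of all genes. For the middle minus the apical effect it called 0, beside 0% of all genes, with 2 members at an unadjusted p under 0.05 (8.05% of all genes).

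**Figure D3:**
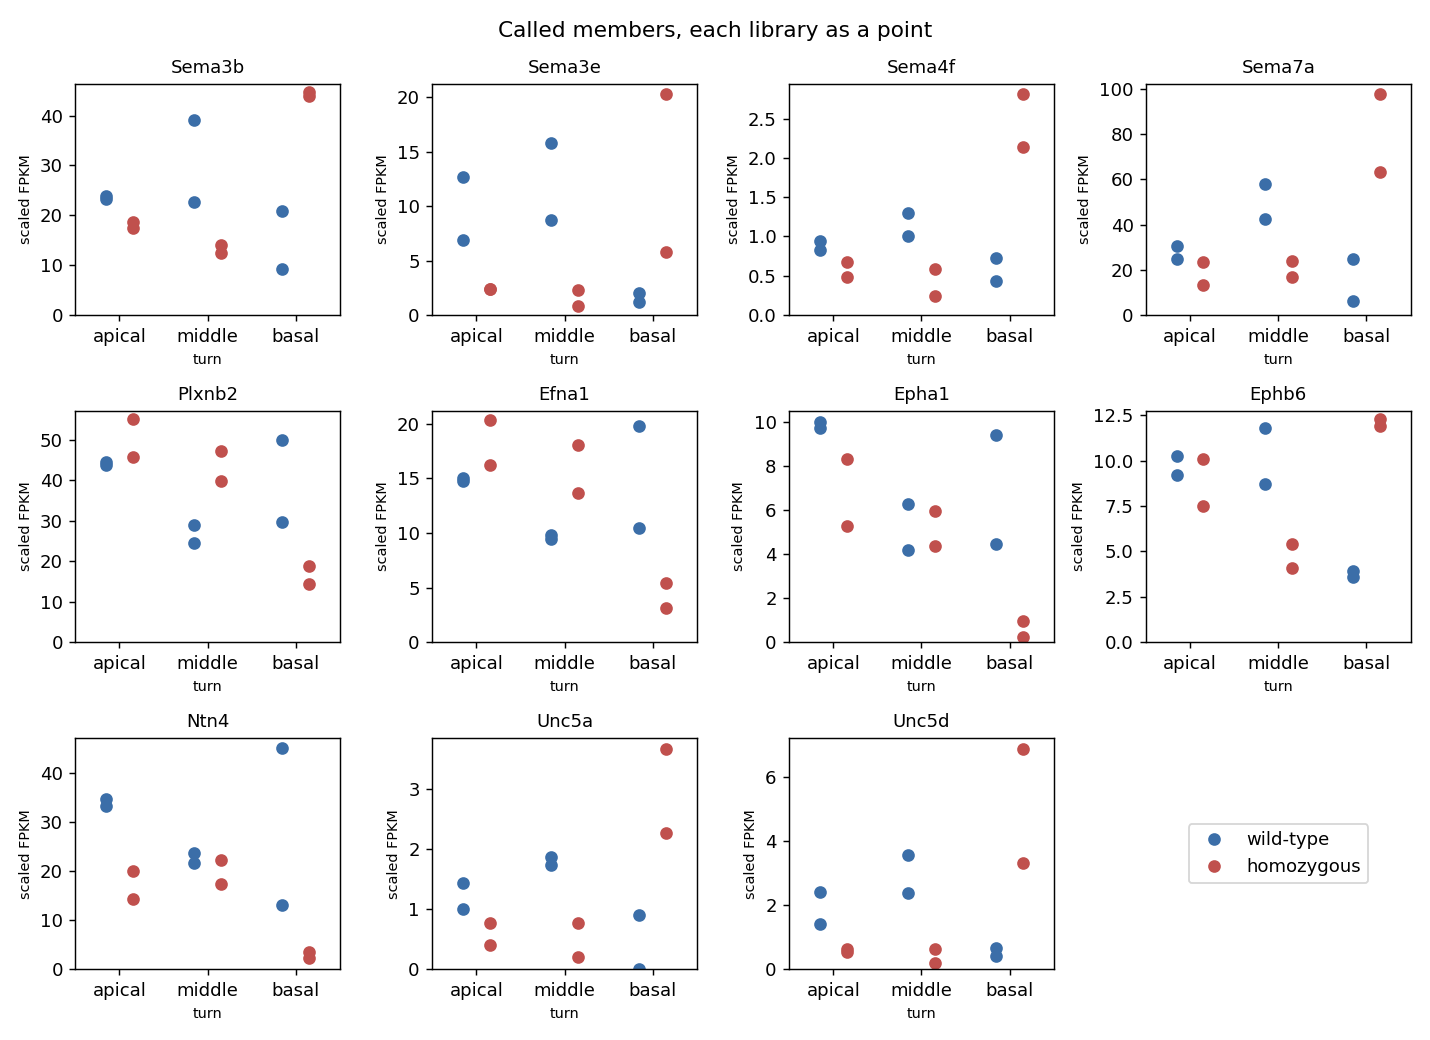
Scaled FPKM of the 11 members called in the basal turn or for the basal minus middle effect, with each library as a point. In the basal turn the homozygous points lie above the wild-type points for 7 of the genes and below them for the other 4.

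Promoters are shown for 7 of these 11 members, since genes that move in opposite directions can be compared by their sequence upstream of the start. RefSeq promoters were present for 9 of the 11, and the 7 shown are those whose RefSeq start and start in the expression table lay within 1 base. The windows hold the 250 bases before the start, in GRCm38.p6, written 5′ to 3′ on the strand of the gene. Capitals mark any of 5 motifs. The GC box was searched as GGGCGG and the CCAAT box by its name. The TATA box was searched as TATAAA. One E box searched was CACGTG. Another E box searched was CAGCTG. Both strands were searched, the E boxes read the same on either strand, and GC boxes can overlap each other. Sema7a lies at chr9:57939862-57940111 (+), Sema3e at chr5:14025026-14025275 (+), Sema4f at chr6:82939770-82940019 (−) and Unc5a at chr13:54949161-54949410 (+), and these have the higher effect in the basal turn. Plxnb2 lies at chr15:89180789-89181038 (−), Epha1 at chr6:42373269-42373518 (−) and Ntn4 at chr10:93640799-93641048 (+), and these were lower in homozygous basal tissue.
Sema7a: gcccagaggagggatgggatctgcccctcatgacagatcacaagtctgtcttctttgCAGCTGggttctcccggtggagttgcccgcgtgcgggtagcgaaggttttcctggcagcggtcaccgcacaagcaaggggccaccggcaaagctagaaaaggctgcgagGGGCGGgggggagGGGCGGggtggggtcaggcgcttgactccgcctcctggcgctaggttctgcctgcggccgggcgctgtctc
Sema3e: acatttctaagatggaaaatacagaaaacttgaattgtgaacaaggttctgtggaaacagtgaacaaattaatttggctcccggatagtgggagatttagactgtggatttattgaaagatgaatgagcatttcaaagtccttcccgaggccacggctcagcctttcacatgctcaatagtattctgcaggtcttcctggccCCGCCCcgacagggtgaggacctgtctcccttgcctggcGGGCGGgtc
Sema4f: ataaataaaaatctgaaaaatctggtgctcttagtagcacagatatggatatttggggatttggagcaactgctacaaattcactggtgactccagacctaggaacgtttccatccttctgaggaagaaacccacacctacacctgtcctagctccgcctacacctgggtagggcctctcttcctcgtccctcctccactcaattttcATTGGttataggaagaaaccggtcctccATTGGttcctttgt
Unc5a: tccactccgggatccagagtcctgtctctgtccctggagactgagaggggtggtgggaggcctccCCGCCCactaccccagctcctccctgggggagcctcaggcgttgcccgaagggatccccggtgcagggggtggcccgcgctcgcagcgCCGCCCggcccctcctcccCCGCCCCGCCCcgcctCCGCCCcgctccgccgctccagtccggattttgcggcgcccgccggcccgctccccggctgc
Plxnb2: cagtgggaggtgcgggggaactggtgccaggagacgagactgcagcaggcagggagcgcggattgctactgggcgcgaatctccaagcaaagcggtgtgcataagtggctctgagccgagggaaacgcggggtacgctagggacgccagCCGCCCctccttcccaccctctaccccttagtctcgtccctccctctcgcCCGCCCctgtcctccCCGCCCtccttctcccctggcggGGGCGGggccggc
Epha1: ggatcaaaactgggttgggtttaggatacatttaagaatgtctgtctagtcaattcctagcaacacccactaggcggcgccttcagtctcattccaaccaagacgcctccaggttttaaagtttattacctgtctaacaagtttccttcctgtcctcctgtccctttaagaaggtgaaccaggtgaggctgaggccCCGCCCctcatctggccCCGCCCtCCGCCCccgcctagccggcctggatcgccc
Ntn4: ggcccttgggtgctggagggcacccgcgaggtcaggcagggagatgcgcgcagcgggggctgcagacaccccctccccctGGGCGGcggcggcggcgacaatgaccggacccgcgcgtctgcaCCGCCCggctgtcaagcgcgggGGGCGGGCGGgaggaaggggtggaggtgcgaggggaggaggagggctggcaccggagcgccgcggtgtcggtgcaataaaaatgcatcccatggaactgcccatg

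GGGCGG was found in 6 of the 7 windows and not in that of Sema4f, with 2 matches in Sema7a, 2 in Sema3e, 5 in Unc5a, 4 in Plxnb2, 3 in Epha1 and 4 in Ntn4. Of all 32851 RefSeq promoter windows of this length, 32.7% hold it. Sema7a alone of the 7 held CAGCTG, which 13% of windows hold. CCAAT (33.9% of windows) was found 2 times in Sema4f and in none of the other 6. TATAAA (12.4%) and CACGTG (6.02%) were not in these 7 windows. The GC content ran from 46% in Sema4f to 76.8% in Unc5a, beside a median of 52.4% over all windows. Genes of either direction had GC boxes, and a match is a description of letters, not a binding site.

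Of 20 semaphorin ligands, 9 were higher in homozygous basal tissue at a limma adjusted p under 0.05 (9.94% of all genes) and 0 lower (8.17%), with 12 at an unadjusted p under 0.05 (32.4% of all genes). The median log2 difference was 0.83 there, beside −0.28 for the apical and −0.21 for the middle turn, and 4 ligands were called higher for the basal minus middle effect (6.33% of all genes). Sema4f is in both counts, and it would not have passed the filter without the homozygous basal libraries, where it is high. Without all such genes 8 of 19 ligands were higher in the basal turn (9.76% of all genes) and 3 were called for the effect (6.32%), and the basal median was 0.67. The basal median of all 20 was 0.84 on FPKM as deposited and 0.80 after quantile normalization, the middle median −0.06 and −0.25, and the apical one −0.26 and −0.25. The basal log2 difference of Sema3a went from −0.92 to −1.96 without the second wild-type basal library, and that of Sema3c from −1.35 to −2.24. Those of Sema5a, Sema7a and Sema4f went up in that fit, from 1.31, 2.54 and 1.14 to 1.79, 3.46 and 1.28.

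Sema7a, a membrane-anchored semaphorin that binds integrins and plexin C1, was the most abundant ligand. Its level at chr9:57940113-57962865 (mm10) was 24.9 and 30.6 in the wild-type apical libraries and 13.4 and 23.3 in the homozygous ones, 57.9 and 42.4 against 23.8 and 16.8 in the middle turn, and 6.25 and 24.7 against 97.7 and 63.2 in the basal turn (scaled FPKM). Both homozygous basal libraries lay above every other library, while in the apical and middle turns both homozygous libraries lay below both wild-type ones. The basal log2 difference was 2.54 ± 0.53 (SE; limma adjusted p = 0.0148), the largest of its family in that turn. It was not called, but was called without the second wild-type basal library (3.46). With a library left out it ran from 1.62 to 3.46. The basal minus middle effect was 3.81 ± 0.76 (adjusted p = 0.00898). That effect ranged from 2.89 to 4.72 with each library left out in turn, and the call was kept in 2 of 12 such fits, those without the first wild-type basal library or the second wild-type basal library.

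Sema3e, a secreted ligand of plexin D1, lies at chr5:14025276-14256689. Its level was 6.905 and 12.7 in the wild-type apical libraries and 2.42 and 2.43 in the homozygous ones, 15.8 and 8.75 against 2.35 and 0.83 in the middle turn, and 1.18 and 2.004 against 20.3 and 5.75 in the basal turn. The homozygous pair was the lower one in the apical and the middle turn and the higher one in the basal turn, without overlap, though the basal homozygous pair was itself far apart. The log2 difference was −1.60 ± 0.55 (limma adjusted p = 0.198) for the apical turn and −2.37 ± 0.55 (adjusted p = 0.04997) for the middle turn, the largest of the family in both. The basal minus middle effect was 4.60 ± 0.77 (adjusted p = 0.00493), from 3.77 to 5.45 with a library left out, and the call was kept in 6 of 12 such fits and lost without the first homozygous apical library, the second homozygous apical library, the first wild-type middle library, the second wild-type middle library, the second homozygous middle library or the first wild-type basal library.

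Sema3b, a secreted ligand that binds neuropilins, was at 23.9 and 23.3 in the wild-type apical libraries and 17.5 and 18.7 in the homozygous ones, 22.6 and 39.2 against 12.5 and 14.1 in the middle turn, and 20.9 and 9.16 against 44.01 and 44.6 in the basal turn (scaled FPKM, chr9:107598217-107609229). The homozygous basal pair was tight and above all other libraries, whereas the homozygous middle pair lay below the wild-type middle pair. Its basal minus middle effect was 2.71 ± 0.49 (limma adjusted p = 0.00603), from 2.16 to 3.25 with a library left out, and the call was kept in 2 of 12 such fits, those without the first wild-type basal library or the second wild-type basal library.

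Sema4f, a transmembrane class 4 semaphorin, was low, at 0.826 and 0.946 in the wild-type apical libraries and 0.671 and 0.483 in the homozygous ones, 1.298 and 1.01 against 0.5805 and 0.246 in the middle turn, and 0.429 and 0.728 against 2.82 and 2.14 in the basal turn (scaled FPKM, chr6:82911885-82939769). The 2 homozygous basal libraries were the only ones above 2, and the gene would not have passed the filter on low values without them. Its basal minus middle effect was 1.75 ± 0.31 (limma adjusted p = 0.00555), from 1.58 to 1.92 with a library left out, and the call was kept in 2 of 12 such fits, those without the second wild-type basal library or the first homozygous middle library. For all 4 ligands, and for the neuron marker sum as well, the homozygous pair lay below the wild-type pair except in the basal turn, where it lay above. Not every neuron gene followed that sum, and Syt1 was higher in the homozygous apical and middle pairs. The part of neuron content in these results was not tested.

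Semaphorin receptors had a median log2 difference of 0.04 in the basal turn, which turned to −0.01 after quantile normalization. Of the 11 plexins and neuropilins, 2 were higher (9.94% of all genes) and 1 lower (8.17%) in homozygous basal tissue at a limma adjusted p under 0.05. Plxnb2, a plexin that receives class 4 semaphorins, had the highest mean of the receptors, at 43.7 and 44.4 in the wild-type apical libraries and 55.1 and 45.6 in the homozygous ones, 28.9 and 24.5 against 39.7 and 47.3 in the middle turn, and 49.99 and 29.8 against 18.9 and 14.3 in the basal turn (scaled FPKM, chr15:89155549-89180788). The homozygous pair was the higher one in the apical and middle turn and the lower one in the basal turn. Its basal minus middle effect was −1.87 ± 0.35 (limma adjusted p = 0.00723), from −2.23 to −1.52 with a library left out, and the call was kept in 1 of 12 such fits, that without the second wild-type basal library.

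Ephrin ligands had a median log2 difference of −0.37 in the basal turn, and 1 of 8 was lower at an adjusted p under 0.05 (8.17% of all genes). Efnb2, a transmembrane ephrin of arteries and sensory epithelia, had the highest mean of the ligands, at 24.9 and 28.1 in the wild-type apical libraries and 21.02 and 19.6 in the homozygous ones, 19.8 and 18.5 against 14.2 and 17.4 in the middle turn, and 28.5 and 13.05 against 18.4 and 10.2 in the basal turn (scaled FPKM). The homozygous pair was the lower one except in the basal turn, where the genotypes overlapped. Efna1, a membrane-anchored ephrin, was at 14.7 and 15.1 in the wild-type apical libraries and 20.3 and 16.2 in the homozygous ones, 9.79 and 9.42 against 13.6 and 18.02 in the middle turn, and 19.8 and 10.5 against 5.43 and 3.13 in the basal turn (scaled FPKM, chr3:89271733-89281142). As for Plxnb2, the homozygous pair was the lower one in the basal turn only, without overlap in any turn. The basal minus middle effect was −2.24 ± 0.43 (limma adjusted p = 0.00785), from −2.67 to −1.82 with a library left out, and the call was kept in 1 of 12 such fits, that without the second wild-type basal library.

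Efnb3, a transmembrane ephrin of the central nervous system, showed the largest middle-turn difference of the ephrin family, at −1.95 ± 1.11 (limma adjusted p = 0.311). Its level was 1.51 and 1.41 in the wild-type apical libraries and 1.399 and 1.03 in the homozygous ones, 33.4 and 0.961 against 1.14 and 1.12 in the middle turn, and 1.32 and 8.24 against 12.4 and 18.6 in the basal turn (scaled FPKM). The difference rested on the first wild-type middle library, and without it the log2 difference was 0.12. Without the second wild-type middle library it was −4.02. The 4 libraries with high Efnb3 were the 4 with high oligodendrocyte and astrocyte marker sums, though not each gene of those lists followed. The part of those markers in the result was not tested. Ephb1, a receptor of ephrin-B ligands chosen after its values were seen, was high in the same 4 libraries, at 1.45 and 1.22 in the wild-type apical libraries and 1.68 and 1.16 in the homozygous ones, 13.4 and 1.18 against 0.615 and 0.936 in the middle turn, and 0.511 and 3.65 against 4.86 and 6.66 in the basal turn.

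Of the 14 Eph receptors, 12 were tested, and 1 was called higher (2.53% of all genes) and 1 lower (1.76%) in the basal turn. The basal log2 difference of Epha3, Epha7 and Ephb4 was −1.46, −1.85 and −0.82 with all libraries. Leaving out the second wild-type basal library made it −2.42, −2.99 and −1.19. The receptor called higher, Ephb6, stayed above 0 with any library left out. Ephb6, an Eph receptor without kinase activity, lies at chr6:41605482-41620509. Its level was 9.205 and 10.3 in the wild-type apical libraries and 10.1 and 7.5 in the homozygous ones, 8.69 and 11.8 against 4.101 and 5.39 in the middle turn, and 3.62 and 3.91 against 11.9 and 12.3 in the basal turn (scaled FPKM). The basal groups were far apart relative to the gap within each pair, and the middle groups were apart in the opposite direction. The basal log2 difference was 1.46 ± 0.20 (limma adjusted p = 0.005099), and the middle one was −0.96 ± 0.20 (adjusted p = 0.0411). With a library left out the basal difference ran from 1.41 to 1.504, and the call was kept in 5 of 12 such fits, those without the first wild-type middle library, the second wild-type middle library, the second wild-type basal library, the first homozygous middle library or the second homozygous middle library. The basal minus middle effect was 2.42 ± 0.28 (adjusted p = 0.00227), and the call was kept in 12 of 12 such fits.

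Epha1, an Eph receptor of epithelia, lies at chr6:42358487-42373268. Its level was 10.03 and 9.74 in the wild-type apical libraries and 8.33 and 5.29 in the homozygous ones, 4.19 and 6.26 against 4.38 and 5.98 in the middle turn, and 9.41 and 4.47 against 0.981 and 0.243 in the basal turn (scaled FPKM). Both homozygous basal libraries were under 1, below all 10 other libraries, and the middle groups overlapped. For the basal turn the log2 difference was −2.27 ± 0.36 (limma adjusted p = 0.00746), from −2.73 to −1.80 with a library left out, and the call was kept in 1 of 12 such fits, that without the second wild-type basal library. The hair cell, supporting cell, fibrocyte and endothelial marker sums, though not all of their genes, were lowest in the same 2 libraries. Their part in the result was not tested.

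Epha7, which binds ephrin-A ligands, had the highest mean of the Eph receptors, at 34.1 and 32.2 in the wild-type apical libraries and 22.8 and 15.5 in the homozygous ones, 27.2 and 31.1 against 19.2 and 23.3 in the middle turn, and 51.2 and 9.77 against 7.53 and 4.08 in the basal turn (scaled FPKM). The first wild-type basal library was the highest and the homozygous basal libraries the lowest, and the 2 wild-type basal libraries differed more from each other than the genotypes did in the middle turn. Epha3, which also binds ephrin-A ligands, had the largest apical difference of the family, at −1.10 ± 0.53 (limma adjusted p = 0.344). Its level was 35.5 and 20.4 in the wild-type apical libraries and 14.98 and 9.63 in the homozygous ones, 2.75 and 2.73 against 6.78 and 6.72 in the middle turn, and 9.53 and 1.797 against 0.943 and 0.992 in the basal turn (scaled FPKM). Both apical groups were above the other 8 libraries, and the wild-type apical pair was the highest.

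Among netrin ligands, Ntn4, a laminin-related netrin of basement membranes, had the highest mean and lies at chr10:93641049-93747207. Its level was 34.7 and 33.2 in the wild-type apical libraries and 19.99 and 14.3 in the homozygous ones, 21.7 and 23.8 against 17.3 and 22.3 in the middle turn, and 45.1 and 13.2 against 3.61 and 2.4 in the basal turn (scaled FPKM). Both homozygous basal libraries were below every other library, while the wild-type basal libraries were far apart. In log2 terms the basal difference was −2.69 ± 0.46 (limma adjusted p = 0.00822), from −3.54 to −1.85 with a library left out, and the call was kept in 1 of 12 such fits, that without the second wild-type basal library. Over the mean of the 3 turns the log2 difference was −1.28 ± 0.26 (adjusted p = 0.0453), which was not called, but was called without the second wild-type basal library (−1.57). The hair cell, supporting cell, fibrocyte and endothelial marker sums, though not all of their genes, were also lowest in both homozygous basal libraries. Their part in the result was not tested.

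Netrin receptors had a median log2 difference of 1.11 for the basal and −0.66 for the middle turn over 4 tested genes. Unc5d, a netrin receptor of the Unc5 type, lies at chr8:28646717-29219636. Its level was 1.41 and 2.42 in the wild-type apical libraries and 0.635 and 0.556 in the homozygous ones, 2.37 and 3.57 against 0.641 and 0.1998 in the middle turn, and 0.416 and 0.666 against 6.87 and 3.33 in the basal turn (scaled FPKM). Here too the homozygous pair was the higher one in the basal turn alone, with no overlap in any turn. The basal log2 difference was 1.93 ± 0.33 (limma adjusted p = 0.00822), from 1.496 to 2.37 with a library left out, and the call was kept in 1 of 12 such fits, that without the second wild-type basal library. With a pseudocount of 0.1 the basal value was 2.96 and was not called. The middle difference was −1.48 ± 0.33 (adjusted p = 0.0454). The basal minus middle effect was 3.41 ± 0.46 (adjusted p = 0.00291), from 2.98 to 3.86, and the call was kept in 11 of 12 such fits and lost without the second wild-type middle library.

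Unc5a, another Unc5 receptor of neurons, was at 1.01 and 1.43 in the wild-type apical libraries and 0.407 and 0.767 in the homozygous ones, 1.88 and 1.73 against 0.771 and 0.2003 in the middle turn, and 0 and 0.9103 against 3.66 and 2.28 in the basal turn (scaled FPKM, chr13:54949411-55006018), with the first wild-type basal library listed at 0. The homozygous basal libraries were the highest of all. For Unc5a the basal minus middle effect was 2.44 ± 0.49 (limma adjusted p = 0.00916), from 1.97 to 2.91 with a library left out, and the call was kept in 1 of 12 such fits, that without the second wild-type basal library. Unc5b, a vascular netrin receptor, had the highest mean of the receptors, at 4.87 and 4.99 in the wild-type apical libraries and 13.9 and 8.903 in the homozygous ones, 12.1 and 2.32 against 9.63 and 9.14 in the middle turn, and 1.28 and 7.97 against 6.67 and 6.26 in the basal turn (scaled FPKM). Its apical log2 difference, the largest of the netrin family there, was 1.03 ± 0.69 (limma adjusted p = 0.508). The homozygous apical pair lay above the wild-type pair, and the wild-type middle libraries were far apart. For Unc5a and Unc5d, the neuron marker sum, though not each of its genes, was likewise lower in homozygous apical and middle libraries. The sum was highest in the homozygous basal ones, and its part in the result was not tested.

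Of the 7 Slits and Robos, 5 were tested and limma called 0 in any turn, with 0 at an unadjusted p under 0.05 for the apical (16.4% of all genes), 0 for the middle (25.4%) and 0 for the basal turn (32.4%). Without the second wild-type basal library Slit2 (1.765 on the log2 scale), Slit3 (2.03) and Robo1 (−1.82) were called in the basal turn. As given above, that fit also called a larger share of all genes than the fit of all libraries. It rests on the first wild-type basal library alone for that group. This library was the lowest of all for Slit2 and Slit3 and the highest for Robo1. Slit2, a secreted repellent, had the highest mean of the ligands, at 4.01 and 4.97 in the wild-type apical libraries and 12.5 and 8.81 in the homozygous ones, 4.995 and 2.75 against 11.7 and 8.303 in the middle turn, and 1.899 and 12.7 against 7.59 and 10.3 in the basal turn (scaled FPKM). The homozygous pair was the higher one except in the basal turn, where the groups overlapped. The log2 difference was 1.07 ± 0.60 (limma adjusted p = 0.422) for the apical and 1.20 ± 0.60 (adjusted p = 0.251) for the middle turn, the largest of the family in each. The strial marker Dct was likewise higher in the homozygous apical and middle pairs and in the second of the wild-type basal libraries. In the second homozygous basal library, though, Dct was at 0.0646 and Slit2 at 10.3. The part of strial content in the Slit2 values was not tested. Robo1, a Slit receptor, had the highest mean of the receptors, at 18.7 and 17.8 in the wild-type apical libraries and 16.3 and 10.3 in the homozygous ones, 12.6 and 16.2 against 13.4 and 15.4 in the middle turn, and 27.8 and 8.04 against 8.11 and 6.38 in the basal turn (scaled FPKM). The wild-type basal libraries were far apart, and the second of them fell within the range of the homozygous pair. The basal log2 difference of Robo1 was −0.98 ± 0.46 (limma adjusted p = 0.176), from −1.82 to −0.15 with a library left out.

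**Figure D4:**
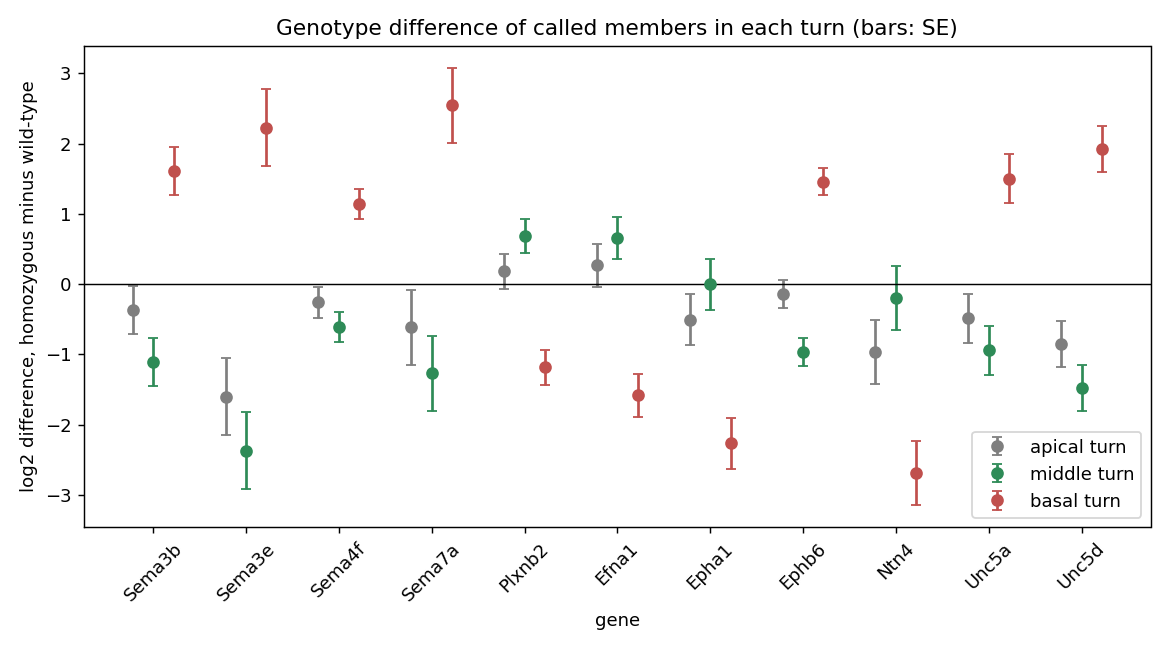
Log2 difference, homozygous minus wild-type, of the 11 called members in each of the 3 turns, with bars of 1 SE from the limma fit. Sema3b, Sema3e, Sema4f, Sema7a, Ephb6, Unc5a and Unc5d are above 0 in the basal turn and below 0 in the other turns.

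Turns of the wild type were also compared with each other. In limma 0 members were called for the basal minus the apical turn, beside 0.0863% of all genes, with 17 at an unadjusted p under 0.05 (20.3% of all genes). Epha3 was called without the first wild-type basal library (−3.32 on the log2 scale), which made the count 1, beside 0.161% of all genes. For the middle minus the apical turn 0 were called, beside 0.0863%, with 9 at an unadjusted p under 0.05 (19.9% of all genes). Epha3 was the 1 call there without the first (−2.910; 0.149% of all genes) or the second wild-type basal library (−2.906; 0.15%), or with library weights (0.685%). For the basal minus the middle turn limma called 0, beside 0%, with 12 at an unadjusted p under 0.05 (15.2% of all genes). At an adjusted p under 0.05, 2 members differed between wild-type basal and apical turns, beside 1.06% of all genes: Ntn1 and Ephb6. Ntn1, the secreted netrin chosen here after its values were seen, was at 1.61 and 1.36 in the wild-type apical libraries and 1.41 and 2.41 in the homozygous ones, 5.16 and 3.54 against 5.07 and 3.63 in the middle turn, and 22.2 and 10.96 against 4.29 and 6.73 in the basal turn (scaled FPKM). Both wild-type basal libraries were above all others, and the log2 difference to the apical turn was 2.75 ± 0.35 (limma adjusted p = 0.01896). For Ephb6 it was −1.17 ± 0.20 (adjusted p = 0.0414). The wild-type turns also differed in marker sums. The hair cell sum was 569.99 and 571 in the wild-type apical and 148 and 147 in the wild-type basal libraries. For neurons it was 746 and 1086 against 14.5 and 950. The part of cell content, or of how the pieces were cut, in these differences between turns was not tested.

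Other genes of axon guidance, of which 79 were looked up and 77 tested, gave 3 calls higher (2.53% of all genes) and 1 lower (1.76%) in the basal turn, and limma called 0 in either other turn, with 14 at an unadjusted p under 0.05 for the apical (16.4% of all genes) and 25 for the middle turn (25.4%). The genes called higher were Shh, a secreted guidance cue (1.43 log2 difference), L1cam, an axonal adhesion molecule (1.84), and Limk1, a kinase of cofilin (2.56). Shh would not have passed the filter on low values without the homozygous basal libraries, so the filter bears on its being high there. Rnd1, a GTP-binding protein that acts at plexins, was called lower (−1.999), a call that was lost on FPKM as deposited and after quantile normalization. The calls of Shh and Limk1 were lost with a pseudocount of 0.1, and all 4 with no filter, with library weights, with the basal libraries alone or with the replicate number as a block. In fits with a library left out, the calls of Shh, L1cam and Rnd1 were kept only without the second wild-type basal library, and that of Limk1 only without that library, the first or the second homozygous middle library. The values without the second wild-type basal library were 1.67, 2.12 and −2.68. For the basal minus middle effect 13 were called higher (6.33% of all genes) and 2 lower (2.58%). Without Shh and all other genes that would not have passed the filter without the homozygous basal libraries, 12 were called higher (6.32% of all genes). With each library left out in turn, the call for this effect was kept in 12 of 12 fits for Cntn1, in 0 for Fzd3 and in 1 to 10 for the other 13 genes. The neuron sum and the Schwann cell and myelin sum were lower in the homozygous middle libraries and higher in the homozygous basal ones. Not each of their genes followed, and their part in these results was not tested. Of all the listed genes, called or not, Cfl1, Cdc42 and Rhoa had the highest means, and these 3, which act on actin downstream of many receptors, were not called in any contrast. Cfl1 was at 194 and 198 in the wild-type apical libraries and 183 and 269 in the homozygous ones, 343 and 406 against 356 and 220.5 in the middle turn, and 184 and 321 against 292 and 439 in the basal turn (scaled FPKM). Cdc42 and Rhoa had means of 166 and 110 scaled FPKM.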

How the data were processed

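The 12 libraries were made by the authors from total RNA, and the deposited FPKM were computed by the authors with fastp 0.20.0, STAR 2.7.3a on mm10 and StringTie 2.0, per the labels and methods. The count-based DESeq2 results of the study were not used here. Groups came from sample titles. Each library was scaled by the median ratio to a reference over 11552 genes, and log2(value + 1) was tested with limma 3.58.1 in R 4.3.3 on the 16215 genes that reached 1 FPKM in 2 libraries. The fit had 1 mean for each of 6 groups, a trended prior and Benjamini-Hochberg adjustment over all genes tested. It was also run on simulated data with independent noise. That simulation held no differences in cell content and no shared animals, so it does not bear on those limits. Named genes are members called in a contrast, the most abundant ligand and receptor of each family, and the member with the largest difference in each family and turn. The members and lists were chosen with earlier results of these data known. Of the listed other guidance genes, 1 is not reported here and is left out of their counts. Alternatives were other pseudocounts, filters, scalings, samples, weights, a replicate block, a looser threshold and each library left out.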

Additional observations from a re-analysis of the deposited data

Results flagged for a closer look

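The genotype effect of 9 of 66 members differed between the basal and the middle turn by the test of that difference, beside 8.91% of all genes. The log2 values were 2.71 for Sema3b, 4.60 for Sema3e, 1.75 for Sema4f, 3.81 for Sema7a, −1.87 for Plxnb2, −2.24 for Efna1, 2.42 for Ephb6, 2.44 for Unc5a and 3.41 for Unc5d. With each library left out in turn, the call was kept in 12 of 12 fits for Ephb6 and 11 of 12 for Unc5d, 6 of 12 for Sema3e, 2 of 12 for Sema3b, 2 of 12 for Sema7a, 2 of 12 for Sema4f, 1 of 12 for Plxnb2, 1 of 12 for Efna1 and 1 of 12 for Unc5a.

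Among the other guidance genes the same difference was 2.63 for Fyn, 1.27 for Fzd3, 2.87 for Cntn1, −1.36 for Boc, 2.37 for Dscam, 5.37 for Cntn2, 3.53 for Nfasc and 4.50 for Ntng1. It was 2.32 for Shh, 3.70 for Crmp1, 4.38 for Limk1, 2.79 for Lrrc4, −1.44 for Rras, 2.22 for Pak1 and 3.17 for L1cam. These calls were kept in 12 of 12 such fits for Cntn1, 10 for Boc, 9 for Limk1 and L1cam, 8 for Fyn and Lrrc4, 7 for Shh, 5 for Cntn2, 3 for Crmp1 and Ntng1, 2 for Dscam and Pak1, 1 for Nfasc and Rras and 0 for Fzd3. Sema4f and Shh would not have passed the filter on low values without the homozygous basal libraries, where both are high, so the filter bears on their values. For Boc the basal minus apical effect was −1.37, a call kept in 1 of 12 such fits and lost under 16 of 21 alternatives, those fits included. Groups of 2 libraries cannot be tested for a library far from the others.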

How the results depend on the processing

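With each library left out in turn, the number of members called ran from 0 to 20 in the basal turn (0.25% to 11.5% of all genes), from 2 to 19 for the basal minus middle effect (1.73% to 14.2%), from 0 to 7 for the basal minus apical effect (0% to 6.88%) and from 0 to 3 for the mean of the 3 turns (0.0811% to 1.88%). It ran from 0 to 1 for the wild-type basal minus apical (0% to 0.161% of all genes) and middle minus apical turns (0% to 0.15%). It was 0 in every such fit for the apical (0.0249% to 0.324% of all genes) and middle genotype comparisons (0.0311% to 0.312%), the middle minus apical effect (0% to 0.00624%) and the wild-type basal minus middle turn (0% to 0.0869%). A group left with 1 library was assumed to vary like the others. Without the second wild-type basal library, that group is the first library alone, which was almost without neuron markers.

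In the basal turn 0 members were called with no filter, with library weights or with the libraries of the contrast alone (0.247%, 0.136% and 0% of all genes), and 21 at an adjusted p under 0.05 (18.1% of all genes). For the basal minus middle effect the count was 1 with no filter (0.822% of all genes), 7 with library weights (6%), 0 with the libraries of the contrast alone (0%) and 24 at an adjusted p under 0.05 (22.9%). Leaving out the first wild-type middle and first wild-type basal libraries together, chosen after seeing the data, gave 1 and 3 (0.542% and 1.34% of all genes). At an adjusted p under 0.05 the count was 3 in the middle turn (3.99% of all genes), 1 for the mean of the turns (2.36%), 2 for the wild-type basal minus apical turn (1.06%) and 14 for the basal minus apical effect (12.5%). The last include Epha8 and Sema4f, on which the filter on low values bears, and without all such genes 10 were higher (7.57% of all genes) and 2 lower (4.91%). Library weights gave 1 for the wild-type middle minus apical turn (0.685% of all genes), and quantile normalization 1 for the basal minus apical effect (2.23%). The cause was not tested.

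With the replicate number as a replicate block, 1 member was called in the basal turn (1.09% of all genes) and 4 for the basal minus middle effect (5.96%). What same-numbered libraries share is not settled by the sources. The correlation of their deviations across genes was between −0.43 and 0.45 over 15 pairs of groups, and 4 pairs were above 0.1. Over the 6 pairs of turns of the same genotype, which alone can share animals, it was between −0.41 and 0.27, and 1 pair was above 0.1. The middle-turn difference of Efnb3 ran from −4.02 to 0.12 with a library left out, and reversed to 0.12 without the first wild-type middle library and to 0.12 without that and the first wild-type basal library. FPKM as deposited moved the median log2 difference of all genes from 0.04 to 0.17 in the middle turn and from −0.12 to −0.25 for the basal minus middle effect, and the share of genes called in the middle turn that were higher from 44.8% to 60.9%. Depth is unknown, so the precision of low values is not given.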
